A study of Homo sapiens with 4 samples.

Results

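The alpha-arrestin genes TXNIP, ARRDC1, ARRDC2, ARRDC3 and ARRDC4 and the genes of the glucose-sensing transcription factors MLXIP (MondoA), MLXIPL (ChREBP) and MLX were followed in leukemia cells after BET protein degradation. The set was chosen by gene family and function while the dBET1 and DMSO values of these genes were already known, so its own changes are given below as a description without a test. These were 8 of the 64252 genes in the count table, each found by its Ensembl identifier, and all 8 passed the filter on low counts, as did 17971 genes in all. RNA was sequenced from cells labelled NB4, an acute promyelocytic leukemia line that carries the PML-RARA fusion, after 24 h with 8 μM dBET1 (2 libraries) or after 24 h with its solvent DMSO (2 libraries). dBET1 joins a ligand of the BET bromodomain proteins to a ligand of CRBN, an adaptor of an E3 ubiquitin ligase. The labels do not say whether the libraries of a group came from separate cultures, so the p-values measure only the spread between these libraries, which may be technical.

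The libraries held 34685645 and 30631745 counts with DMSO and 28019956 and 28349721 with dBET1. Genes with any count numbered 25274 and 24589 with DMSO and 28356 and 28353 with dBET1. The part of this in the values of genes with no or few DMSO counts was not tested. The line's markers were checked against its label. The granule protease genes ELANE and CTSG had no count in any of the 4 libraries, and the 10 promyelocyte and myeloid markers together reached 41.6 and 44.2 CPM (counts of a gene per 1000000 counts of the library) with DMSO and 36.8 and 37.7 CPM with dBET1. Most of this came from SPI1 (27.7 and 28.8 CPM with DMSO) and CD33 (9.90 and 11.9 CPM with DMSO). MPO, a further granule gene, had no count with DMSO and 22 and 10 counts with dBET1. By edgeR's quasi-likelihood test MPO was higher (adjusted p = 0.00459) and SPI1 lower (adjusted p = 0.0409), beside 28% and 27.6% of all tested genes. The other tested markers of this list did not pass. The 12 erythroid markers, which hold globin genes and GATA1, summed to 6517 and 7859 CPM with DMSO and to 3920 and 3843 CPM with dBET1. Of them, 10 fell at an adjusted p under 0.05, beside 27.6% of all tested genes. The 6 lymphoid markers summed to 29.9 and 33.9 CPM with DMSO and to 13.0 and 13.1 CPM with dBET1, nearly all of it CD3D. The defining granule genes of a promyelocyte were thus absent or near 0 in libraries rich in erythroid transcripts, and the part of this in the values below was not tested. In bulk RNA, fewer cells of a type and less RNA per cell cannot be told apart.

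Alpha-arrestins are adaptor proteins with an arrestin fold, and most of them carry PPxY motifs that recruit ubiquitin ligases of the NEDD4 family to membrane cargo. TXNIP binds thioredoxin and promotes the uptake of glucose transporters from the cell surface, and ARRDC4 is its closest relative. MondoA and ChREBP respond to phosphorylated hexoses, pair with MLX and bind carbohydrate response elements, and TXNIP and ARRDC4 are among their known targets.

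TXNIP (ENSG00000265972, hg38 chromosome 1, 145992435 to 145996579, minus strand) was counted 5570 and 4404 times with DMSO and 40114 and 41151 times with dBET1. Its level was 171 and 157 CPM with DMSO and 1337 and 1348 CPM with dBET1, so the groups lay far apart and each pair lay close together. The means were 164 ± 9.89 CPM and 1342 ± 8.10 CPM (SD, n = 2 each), a fold of 8.20 and a log2 fold change of 3.04 with a standard error of 0.0776. By level per length, that is CPM per 1000 bases of merged exons, TXNIP stood at places 945 and 1096 among 19550 protein-coding genes with DMSO and at place 71 in both dBET1 libraries. Of the 245 tested genes at least as abundant as TXNIP, itself included, it had the largest log2 fold change. Abundance was the mean log2 CPM of the 4 libraries, so the dBET1 level entered it. Over all tested genes, scarce ones included, 96.3% had a smaller log2 fold change than TXNIP.

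ARRDC4 (ENSG00000140450, chromosome 15, 97960703 to 97973833, plus strand), an adaptor that like TXNIP acts on glucose transporters, had 399 and 283 counts with DMSO and 8219 and 8013 with dBET1. The DMSO libraries gave 12.2 and 10.1 CPM and the dBET1 libraries 274 and 262 CPM. The means were 11.1 ± 1.53 CPM and 268 ± 8.03 CPM (SD, n = 2 each), a fold of 24.0 and a log2 fold change of 4.58 with a standard error of 0.113. The gene moved from places 7576 and 7923 among coding genes to places 383 and 392, and it ranked 1 by log2 fold change among the 4139 tested genes at least as abundant. Over all tested genes, 98.5% had a smaller log2 fold change than ARRDC4. ARRDC4 thus started at a lower level than TXNIP and differed by a larger factor. The per-length ratio of TXNIP to ARRDC4 was 15.7 and 17.5 with DMSO and 5.50 and 5.79 with dBET1.

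**Figure D1:**
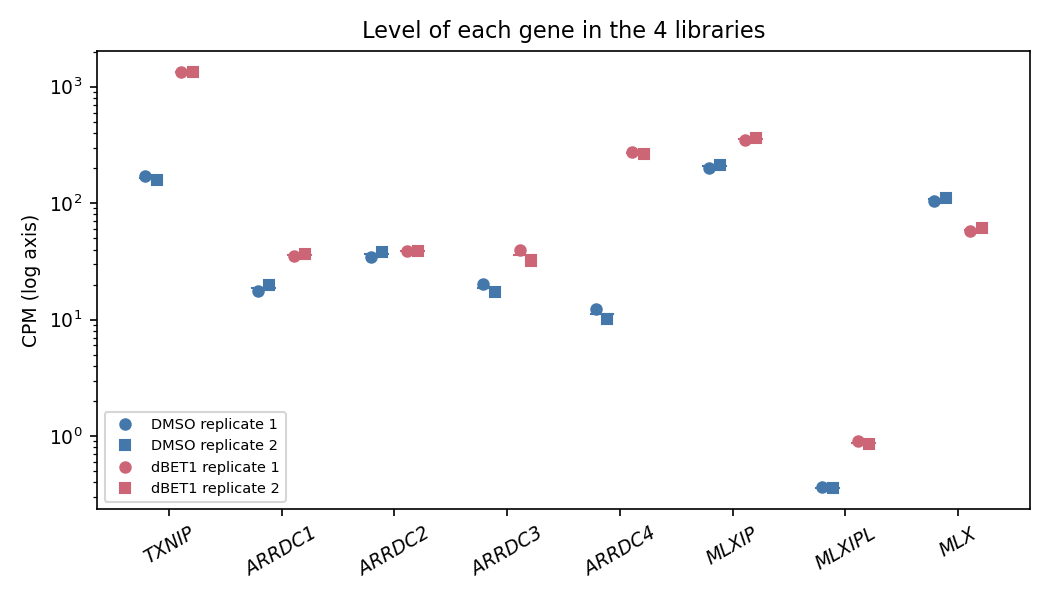
Level of each gene in CPM (log axis) in the 4 libraries; circles and squares are replicates 1 and 2 and bars are group means. TXNIP lies at 157 to 171 CPM with DMSO and at 1337 to 1348 CPM with dBET1, ARRDC4 at 10.1 to 12.2 and 262 to 274 CPM, and MLX is the gene whose dBET1 values lie lower.

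The promoters of TXNIP and ARRDC4, the genes with the largest changes of the set, and of MLX, the gene of the set that was lower, were read from RefSeq (GRCh38.p14). Each is printed 5′ to 3′ on the strand of its gene. Capitals mark the E-box CACGTG in ARRDC4 and MLX, and CACGAG, which is not an E-box, in TXNIP. They also mark CCAAT boxes (CCAAT, or ATTGG where the box lies on the other strand). The TXNIP stretch spans chr1:145996580-145996829 (minus strand), the 250 bases before the start site. The ARRDC4 stretch spans chr15:97960453-97960702 (plus strand), also 250 bases before the start. The MLX stretch spans chr17:42566950-42567069 (plus strand), 120 bases that end 31 bases before the RefSeq start.
TXNIP: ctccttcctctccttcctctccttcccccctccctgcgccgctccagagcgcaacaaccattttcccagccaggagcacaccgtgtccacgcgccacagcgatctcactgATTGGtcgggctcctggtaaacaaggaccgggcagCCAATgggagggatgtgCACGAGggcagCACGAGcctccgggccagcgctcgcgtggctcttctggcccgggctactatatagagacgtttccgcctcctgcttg
ARRDC4: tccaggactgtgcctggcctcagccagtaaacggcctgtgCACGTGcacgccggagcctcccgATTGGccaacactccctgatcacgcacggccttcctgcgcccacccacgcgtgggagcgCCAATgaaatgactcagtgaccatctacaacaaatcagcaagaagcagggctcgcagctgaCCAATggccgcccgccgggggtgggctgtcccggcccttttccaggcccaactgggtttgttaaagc
MLX: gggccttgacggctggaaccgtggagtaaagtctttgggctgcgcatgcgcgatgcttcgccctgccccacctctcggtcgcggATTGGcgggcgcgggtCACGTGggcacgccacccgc
TXNIP held CACGAG 88 and 77 bases upstream of the start, with 5 bases between the copies, and CCAAT boxes 140 and 105 bases upstream. ARRDC4 held CACGTG 210 bases upstream and CCAAT boxes 187, 128 and 67 bases upstream. MLX held CACGTG 50 bases upstream and a CCAAT box 66 bases upstream.

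Both strands of 300 bases around each RefSeq start (250 before it, 50 after it) were searched, in 35116 windows of which 11 belonged to the 8 genes. CACGTG was found in 7.26% of all windows, CACGAG in 6.78%, CCAAT in 34.6% and TATAAA in 11.5%. A pair of CACGNG copies 5 bases apart was found in 20 windows or 0.057%. That form was written down after the TXNIP window had been seen. The TXNIP window is therefore among them by construction, and the share is no test. The carbohydrate response element consensus was searched as CAYGNG, 5 bases and CNCRTG. Here Y is C or T, R is A or G and N is any base. This form was found in 31 windows (0.0883%) and in none of the 11. The CACGAG copy of TXNIP nearer the start departs from CNCRTG, so the lack of a match does not show that an element is absent. ARRDC1, ARRDC2, ARRDC3 and MLXIP each held 1 CCAAT box, ARRDC2 also held TATAAA 30 bases upstream (both in the window of its second RefSeq start, inside the gene, with neither in that of the first), and MLXIPL held none of the letters searched. CACGTG and CACGAG also match the CACGNG form, so these shares overlap. A match describes letters only, and no binding was measured here.

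The other alpha-arrestins differed less. ARRDC1 (ENSG00000197070, chromosome 9, 137605685 to 137615360, plus strand), which takes part in the budding of vesicles from the plasma membrane, had 17.6 and 19.8 CPM with DMSO and 35.4 and 36.7 CPM with dBET1, a log2 fold change of 0.95 (SE 0.113) or 1.93-fold. ARRDC3 (ENSG00000113369, chromosome 5, 91368631 to 91383317, minus strand), an adaptor for beta-adrenergic receptors and integrins, had 20.0 and 17.3 CPM with DMSO and 39.9 and 31.9 CPM with dBET1, a log2 fold change of 0.94 (SE 0.144) or 1.92-fold. In both genes the groups did not overlap, although the dBET1 libraries of ARRDC3 were further apart (SD 5.71 CPM) than those of ARRDC1 (SD 0.898 CPM). Both lay just below the log2 fold change of 1 that served as the limit of a call.

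ARRDC2 (ENSG00000105643, chromosome 19, 18001132 to 18014102, plus strand), another NEDD4-binding adaptor, had 34.6 and 38.3 CPM with DMSO and 39.0 and 38.9 CPM with dBET1. Its log2 fold change of 0.10 was about as large as its standard error of 0.0985, and the distance from the higher DMSO library to the dBET1 libraries was smaller than that between the DMSO libraries. Leaving out DMSO replicate 1 brought it to -0.0003. The family therefore held 2 genes with large differences, 2 that were nearly doubled on the CPM scale and 1 without a clear difference. ARRDC1 overlaps the antisense gene ARRDC1-AS1 by 35 bases, and since the strand setting of the counting was not stated, reads there cannot be told apart.

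By level per length the DMSO order of the family was TXNIP (45.4), ARRDC2 (7.86), ARRDC1 (4.94), ARRDC3 (3.74) and ARRDC4 (2.74), each in CPM per 1000 bases. With dBET1 the order was TXNIP (372), ARRDC4 (66.0), ARRDC1 (9.51), ARRDC2 (8.40) and ARRDC3 (7.20). ARRDC4 went from the lowest place in its family to the second, while ARRDC2 and ARRDC3 with dBET1 were apart by about the SD of ARRDC3 (1.15 per 1000 bases). The same orders were found with the length of the longest transcript. The 5 genes summed to 66.5 and 62.9 per 1000 bases with DMSO and to 464 and 463 with dBET1. TXNIP made up 71.2% and 69.1% of this sum with DMSO and 79.9% and 80.8% with dBET1, and ARRDC4 went from 4.53% and 3.94% to 14.5% and 14.0%. ARRDC2 made up 11.2% and 13.1% with DMSO and 1.81% in each dBET1 library.

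**Figure D2:**
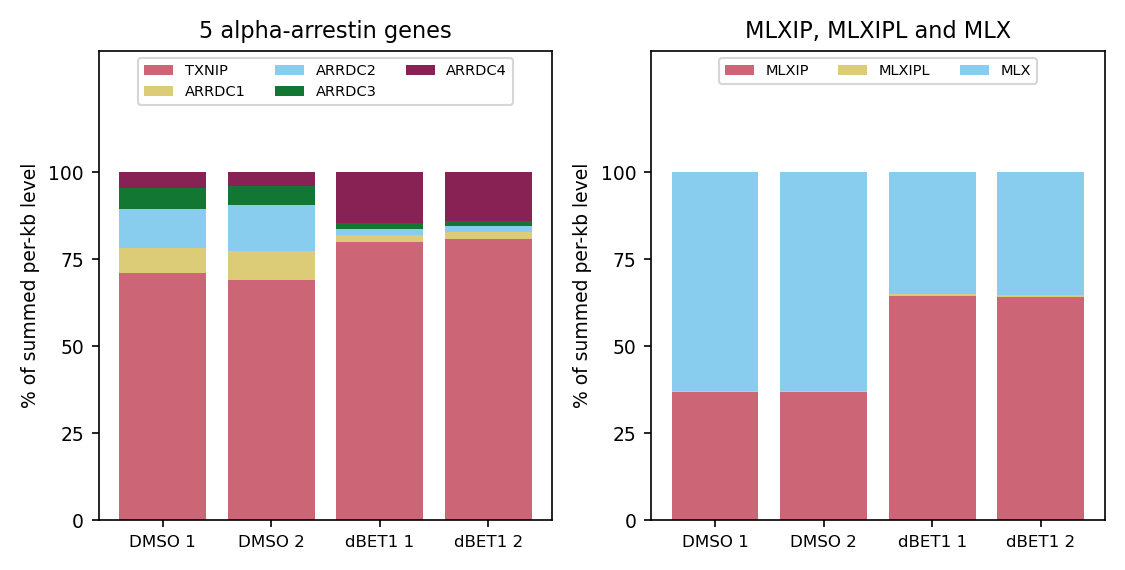
Share of each gene in the summed per-length level (% of CPM per 1000 bases of merged exons) of the 5 alpha-arrestins (left) and of MLXIP, MLXIPL and MLX (right), 1 bar per library. ARRDC4 widens from 3.94% to 4.53% with DMSO to 14.0% to 14.5% with dBET1, and MLXIP passes MLX in both dBET1 libraries.

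Among the regulators, MLXIP (ENSG00000175727, chromosome 12, 122078756 to 122147344, plus strand), which encodes the glucose sensor MondoA, had 6565 and 5978 counts with DMSO and 10421 and 11045 with dBET1. These were 201 and 213 CPM against 347 and 362 CPM, a log2 fold change of 0.78 (SE 0.0720) or 1.71-fold. MLX (ENSG00000108788, chromosome 17, 42567072 to 42573239, plus strand), the obligate partner of MondoA and ChREBP, had 3421 and 3129 counts with DMSO and 1731 and 1866 with dBET1. These were 105 and 111 CPM against 57.7 and 61.1 CPM, a log2 fold change of -0.86 (SE 0.0839) or 0.550-fold. The partners thus differed in opposite directions, with no overlap between the groups in either gene. All these levels are relative to the other RNA of a library, and amounts per cell were not measured.

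The per-length ratio of MLXIP to MLX was 0.589 and 0.586 with DMSO and 1.85 and 1.82 with dBET1. Their sum with MLXIPL stayed near the same value, at 39.2 and 41.6 per 1000 bases with DMSO and 38.8 and 40.6 with dBET1. MLXIP made up 37.0% and 36.9% of it with DMSO and 64.6% and 64.2% with dBET1. With the longest transcript in place of merged exons, MLXIP stood at 24.7 and MLX at 41.8 with DMSO, and at 42.3 and 23.0 with dBET1, so the order turned in the same way. MLX overlaps PSMC3IP, a gene on the other strand, by 930 bases, and reads there may have been shared. PSMC3IP had 23.2 and 26.3 CPM with DMSO and 20.0 and 19.8 CPM with dBET1 (log2 fold change -0.32) and did not pass.

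MLXIPL (ENSG00000009950, chromosome 7, 73593194 to 73624543, minus strand), which encodes the liver and fat counterpart ChREBP, was barely detected. It had 12 and 10 counts with DMSO and 27 and 26 with dBET1, or 0.368 and 0.356 CPM against 0.900 and 0.852 CPM. Its log2 fold change was 1.26 with a standard error of 0.426, the widest of the set, since few reads stood behind it. The per-length level of MLXIP was 190 and 208 times that of MLXIPL with DMSO and 134 and 147 times with dBET1, so MLXIP was by far the more abundant Mondo gene in all 4 libraries.

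Past both limits of a call (an adjusted p under 0.05 in edgeR's quasi-likelihood test and an absolute log2 fold change above 1) stood TXNIP, ARRDC4 and MLXIPL as higher and none of the 8 as lower. TXNIP and ARRDC4 stayed past both limits in all 11 alternatives, whereas MLXIPL fell short in 7, among them DESeq2, the replicate block and each fit without 1 library. Over all tested genes 16.9% were called higher and 8.54% lower, and nothing is read from the difference, since the set was chosen with this contrast known. The limits and the alternatives, which refit the same 4 libraries, describe the 8 genes and do not test them. By the adjusted p alone 6 of the 8 were higher (28% of all tested genes) and MLX was lower (27.6%). The groups did not overlap in any of the 8 genes, 7 higher (41.9% of all tested genes) and 1 lower (37.4%). Just inside the fold limit lay MLXIPL at 1.26, and just outside lay ARRDC1 at 0.95 and ARRDC3 at 0.94. The median log2 fold change of all tested genes was 0.048. Scaling by total counts alone moved that median to 0.26 and the share of higher among called genes from 66.4% to 80.2%, and it brought ARRDC1 and ARRDC3 past the limit, so that 5 of the 8 were higher. MLX stayed lower under that scaling, at -0.65.

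**Figure D3:**
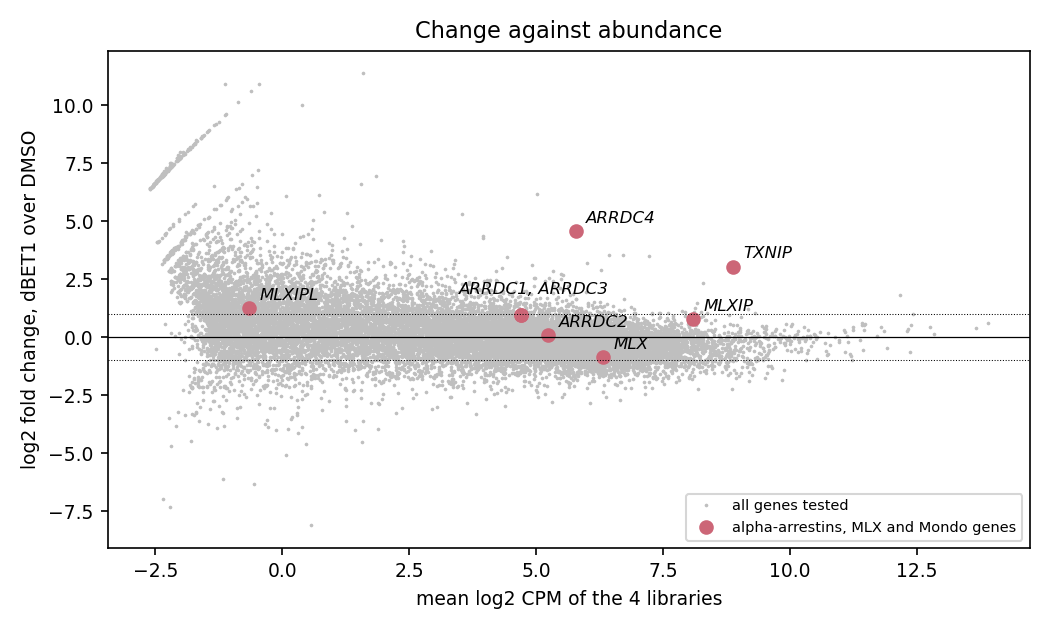
Log2 fold change (dBET1 over DMSO) against mean log2 CPM of the 4 libraries for the 17971 tested genes (grey) and the 8 genes (red); dotted lines mark a log2 fold change of 1 and -1. TXNIP (3.04) and ARRDC4 (4.58) lie above all grey points at their abundance or higher, and the points of ARRDC1 and ARRDC3 coincide.

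**Figure D4:**
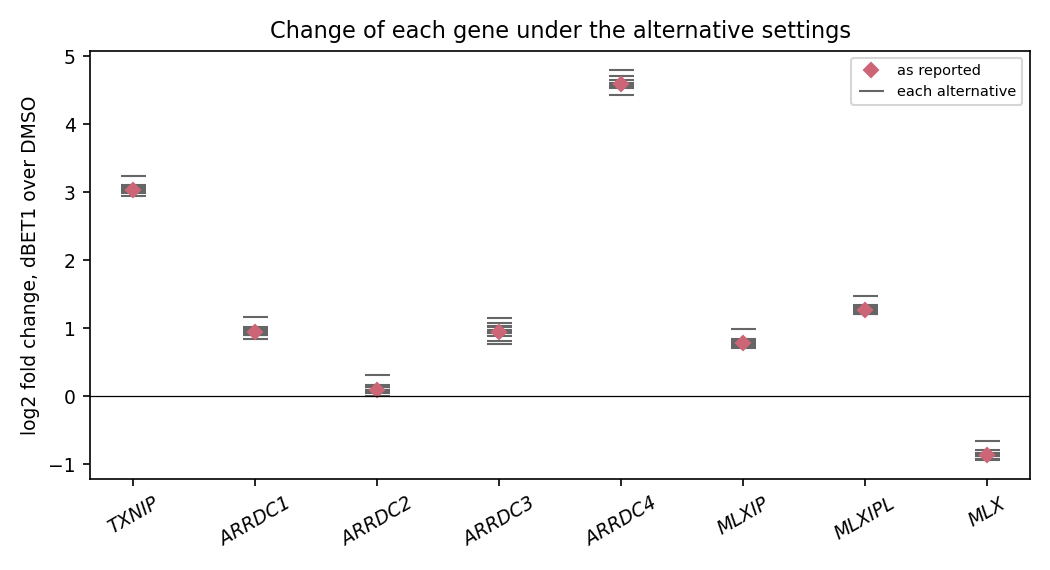
Log2 fold change of each gene as reported (diamond) and under each of 11 alternative settings (bars). TXNIP stays between 2.94 and 3.24 and ARRDC4 between 4.42 and 4.79, MLX stays below 0, and ARRDC2 runs from -0.0003 to 0.31.

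Around these genes, 94 genes in 9 lists were read from the fit across all genes, and 78 of them were tested. The lists too were chosen with earlier results of these data known, so their shares are a description. At an adjusted p under 0.05, 22 were higher (28.2%, beside 28% of all tested genes), 28 were lower (35.9%, beside 27.6%) and 28 did not pass, and 8 and 9 of the higher and lower ones were also past the fold limit. Of these calls, 11 of the 22 higher and 21 of the 28 lower were kept in every alternative that tested the gene. That was all 11 alternatives, except for SLC2A4, SLC2A9 and ARR3, which were tested in 10. None of the 50 called genes changed sign in any. By total counts alone 30 were higher and 21 lower. The counts of the single lists below stand beside the same 28% and 27.6%.

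Among other partners of MLX and MAX, 2 of 5 rose, 1 fell and the median log2 fold change was 0.31, and by total counts alone 4 of 5 were higher. MXD4, a repressor that pairs with MAX and MLX, rose from 14.2 and 16.5 CPM to 83.2 and 83.3 CPM, a log2 fold change of 2.44 (adjusted p = 7.28e-06). MAX, the shared partner of the MYC and MXD proteins, fell from 76.7 and 81.8 CPM to 46.6 CPM in each dBET1 library (log2 fold change -0.77, adjusted p = 0.000217). MXD1 was higher by 0.44 (adjusted p = 0.022), a call that was lost in 4 of 11 alternatives, where the adjusted p ran from 0.00164 to 0.117.

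Of 14 genes of the glucose transporter family, on some of whose proteins TXNIP and ARRDC4 act, 9 were tested, 3 rose and 3 fell, with a median of 0.10. SLC2A1, the main transporter of blood cells, fell from 220 and 216 CPM to 162 and 154 CPM (log2 fold change -0.46, adjusted p = 0.0012). SLC2A4, the insulin-responsive transporter, fell from 79 and 84 counts to 4 and 7 (log2 fold change -3.86, adjusted p = 0.000196). SLC2A3 had 186 and 168 CPM with DMSO and 189 and 191 CPM with dBET1 and did not pass, and it shares near-identical sequence with SLC2A14. The genes that rose were scarce ones. SLC2A11 rose by 1.81 (adjusted p = 0.000529) and SLC2A12 by 1.91 (adjusted p = 0.00187) on the log2 scale, and SLC2A9, a urate carrier, went from 0 in both DMSO libraries to 24 and 42 counts, at least 10.9-fold higher against a floor of 3 counts per library. SLC2A8 was lower by the narrowest margin (adjusted p = 0.0499), which was lost in 10 of 11 alternatives, and SLC2A5 and SLC2A7 had no count.

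The enzymes that make and use the hexose phosphate signal were lower or did not pass. Of 7 tested genes of glucose phosphorylation and its next steps, 5 fell and 0 rose, with a median of -0.54, while at an unadjusted p under 0.05 the count of higher genes was also 0, in edgeR and by DESeq2. HK2, the inducible hexokinase, fell from 185 and 170 CPM to 25.9 and 24.0 CPM (log2 fold change -2.83, adjusted p = 2.36e-06). HK1, the common hexokinase, fell from 597 and 630 CPM to 210 and 213 CPM (log2 fold change -1.53, adjusted p = 8.34e-06). GPI, the isomerase of the next step, fell by 0.56 on the log2 scale (adjusted p = 0.000327). HKDC1 and G6PC1 had no count. Of the 5 falls, 4 were kept in all 11 alternatives, and that of G6PC3 was lost in 4.

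Other genes known to carry carbohydrate response elements or to respond to ChREBP differed in both directions. Of 14 tested, 4 were higher, 8 were lower and the median was -0.43. KLF10, a zinc finger repressor, rose from 27.6 and 23.2 CPM to 60.8 and 61.2 CPM (log2 fold change 1.26, adjusted p = 6.77e-05). PPP1R3B, a glycogen-targeting subunit of a phosphatase, rose by 0.90 (adjusted p = 0.00036), and ACACB, the mitochondrial acetyl-CoA carboxylase, by 1.20 (adjusted p = 0.0246, lost in 4 of 11 alternatives). FASN, the fatty acid synthase, fell from 1179 and 1233 CPM to 504 and 527 CPM (log2 fold change -1.23, adjusted p = 1.39e-05). PKLR, a pyruvate kinase of liver and red cells, fell by 1.93 (adjusted p = 5.1e-05) and KHK, the fructose kinase, by 1.67 (adjusted p = 0.000113) on the log2 scale.

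Genes of the thioredoxin and peroxiredoxin system, which holds the binding partner of TXNIP, were mostly lower. Of 13 tested, 1 rose and 7 fell, all 8 calls were kept in every alternative, and the median was -0.57. TXN, the cytosolic thioredoxin that TXNIP binds, fell from 256 and 268 CPM to 163 and 159 CPM (log2 fold change -0.70, adjusted p = 0.000138). The per-length ratio of TXNIP to TXN transcripts was 0.187 and 0.164 with DMSO and 2.30 and 2.37 with dBET1. PRDX4 fell by 1.32 (adjusted p = 1.57e-05), PRDX3 by 1.31 (adjusted p = 1.63e-05) and PRDX2 by 1.24 (adjusted p = 2.66e-05) on the log2 scale, each a peroxidase reduced by thioredoxins or their relatives. PRDX2 and, of the enzymes above, PKLR are also abundant in red cell precursors, and the summed erythroid markers were lower in the same libraries (3843 to 3920 against 6517 to 7859 CPM); the part of this in their values was not tested. TXNRD3, a thioredoxin reductase, was the gene that rose, from 61 and 48 counts to 156 and 158 (log2 fold change 1.53, adjusted p = 0.00121).

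**Figure D5:**
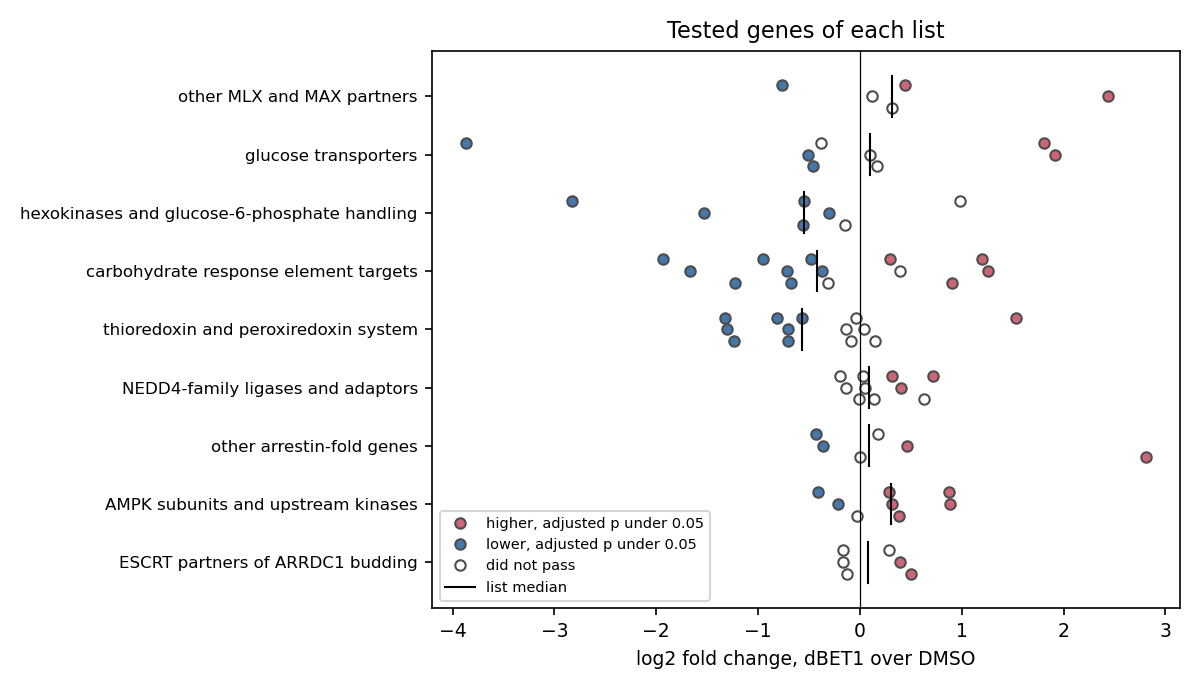
Log2 fold change (dBET1 over DMSO) of the tested genes of each list; filled points passed an adjusted p of 0.05, open points did not, and black bars are list medians. The medians run from -0.57 in the thioredoxin and peroxiredoxin system to 0.31 among other MLX and MAX partners; SLC2A9, with no count in the DMSO libraries, is left out.

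The next lists hold genes whose products act together with alpha-arrestins at membranes. Of 10 tested NEDD4-family ligases and adaptors, 3 were higher (beside 28% of all tested genes) and 0 lower, none past the fold limit, with a median of 0.09, and 5 were higher by total counts alone. The 0 lower genes stood also at an unadjusted p under 0.05 in edgeR and by DESeq2. NEDD4 itself rose from 19.7 and 14.7 CPM to 29.3 and 27.6 CPM (log2 fold change 0.72, adjusted p = 0.00526), a call kept in all alternatives, while those of NDFIP2 (0.40, adjusted p = 0.0136) and NEDD4L (0.32, adjusted p = 0.0271) were lost in 3 and 4 of 11. Of 6 ESCRT genes that serve ARRDC1 vesicle budding, TSG101 (0.50, adjusted p = 0.0142) and VPS28 (0.40, adjusted p = 0.0375) were higher, lost in 2 and 4 alternatives, and the list median was 0.08.

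Of 6 tested arrestin-fold genes outside the family, 2 were higher and 2 lower, with a median of 0.09. ARR3, the cone arrestin, rose from 5 and 2 counts to 27 and 23 (log2 fold change 2.81, adjusted p = 0.00409), and VPS26C, an endosomal sorting subunit, was higher by 0.46 (adjusted p = 0.0084, lost in 2 of 11 alternatives). VPS26A (-0.37, adjusted p = 0.0105) and ARRB2 (-0.43, adjusted p = 0.0481) were lower, calls lost in 2 and 9 of 11 alternatives. SAG and ARRDC5 had no count.

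AMPK phosphorylates TXNIP and thereby leads to its degradation. Of 8 tested genes of AMPK subunits and its upstream kinases, 5 were higher and 2 lower, none past the fold limit, with a median of 0.30. PRKAB2, a scaffold subunit, rose from 21.1 and 18.1 CPM to 35.9 and 36.8 CPM (log2 fold change 0.89, adjusted p = 0.0005). STRADA, which activates the kinase LKB1, rose by 0.87 (adjusted p = 0.000825), and both calls were kept in all alternatives. STK11, the LKB1 gene, was higher by 0.39 (adjusted p = 0.0164, lost in 3 of 11). CAB39 (-0.41, adjusted p = 0.00244) and PRKAB1 (-0.22, adjusted p = 0.0424) were lower, lost in 1 and 7 alternatives, and by total counts alone no gene of this list was lower. PRKAA2 and PRKAG3 had no count.

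Genes with a profile like that of TXNIP were sought by Euclidean distance of log2 CPM centred over the 4 libraries. The 4 nearest protein-coding genes were SPACA9 (distance 0.0950), HELZ2 (0.0963), TP53INP1 (0.104) and H2BC14 (0.126). HELZ2, a helicase-like coactivator, had 355 and 272 counts with DMSO and 2730 and 2627 with dBET1 (log2 fold change 3.10), and TP53INP1, a p53 target, had 64 and 52 against 520 and 490 counts (3.13). H2BC14 had no count with DMSO and 13 and 14 with dBET1. The genes nearest to ARRDC4 were GALNT3, ALKAL2, FAM205A and METTL27, at distances of 0.202 to 0.305. All 4 had no count with DMSO and 38 to 50 with dBET1. For these 4 and for H2BC14 the distance depends on the prior count added before the logarithm, and only a lower bound of the fold can be given: at least 13.1-fold higher for each of the 4 and at least 4.49-fold higher for H2BC14, against a floor of 3 counts per library. SPACA9 had 12 and 10 counts with DMSO and 100 and 99 with dBET1 (log2 fold change 3.17). At so few DMSO counts its distance depends on the prior count as well.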

How the data were processed

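RNA of 2 DMSO and 2 dBET1 libraries was compared. The authors aligned paired-end reads to hg38 with HISAT2 (version 2.2.0, per the submitters' processing notes), estimated abundances with StringTie and deposited whole-number counts per Ensembl gene, without normalization. How the StringTie output became counts, and with which strand setting, is not given in the sources used here, so reads of overlapping genes may be shared. The labels name TRIzol for RNA extraction, whereas the study's methods name a column kit. The 4 columns used were assigned by the group, the hours and the replicate in their names (NC was read as the DMSO control), and 0 columns were left out.

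Counts were analysed in R 4.3.3 with edgeR 4.0.16 and limma 3.58.1. Genes were filtered with filterByExpr, scaled with TMM factors (0.918 to 1.08) and compared with the two-sided quasi-likelihood test and Benjamini-Hochberg adjustment across the 17971 genes that passed. As standard error served the log2 fold change divided by the square root of F. The biological coefficient of variation was 0.123. CPM were taken over TMM-scaled totals, and levels per length used merged exons of GENCODE release 44, in which 56105 of 64252 identifiers were found; the others held 2.57% of the counts. Replicates differed beyond counting error (chi-square per degree of freedom 23.6 for DMSO and 8.14 for dBET1). The smallest p of an exact permutation test with 2 against 2 libraries is 0.333, so none was run. Steps were tested on simulated data. Figures used Python 3.11.15 and matplotlib 3.10.9.

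The 8 genes and all lists were chosen with earlier results of these data known. Named were the 8 genes, up to 3 higher and 3 lower genes of smallest p per list, TXN, SLC2A1, HK2, list genes without counts, the nearest tested protein-coding genes on each side of the 8, the 4 genes most like TXNIP and the 4 most like ARRDC4, and the markers; G6PC3, SLC2A3 and SLC2A14, the antisense overlaps and the names of marginal calls were added after their values were seen. The same values were recomputed with DESeq2 1.42.0, with DESeq2 size factors in the edgeR fit, by total counts alone, with all genes kept, with 10 or more counts demanded in each library, with the replicate number as a block, with counts divided by 2 in case reads were counted double, with each library left out in turn, and, for lengths, with the longest transcript.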

Additional observations from a re-analysis of the deposited data

How the results depend on the processing

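Over 11 alternatives the log2 fold change of each of the 8 genes kept its sign, except ARRDC2, which was -0.0003 without DMSO replicate 1. Of the 8 genes, 5 were past the limits as higher, in place of 3, by total counts alone and also with at least 10 counts in every library, where ARRDC1 and ARRDC3 joined. The call of MLXIPL was lost in 7 of 11 alternatives: with DESeq2, without a count filter, with the replicate block and without any 1 of the 4 libraries. That left 2 of the 8 in the first 3 and without dBET1 replicate 1, while ARRDC3 (without DMSO replicate 1 or dBET1 replicate 2) or ARRDC1 (without DMSO replicate 2) took its place in the others. Of all genes, 1940 were higher with at least 10 counts in every library (3032 as reported), where 15250 genes were tested, and 952 were lower by total counts alone (1535 as reported). Among the pathway genes, 12 were higher without a count filter (22 as reported), and leaving out 1 library gave 12 to 21, with 12 without either dBET1 library; the cause was not tested. Where a group was left with 1 library, that library was taken to vary like the other group. The replicate numbers were not found to pair the samples (correlation of deviations -0.0075, 2 pairs), and with the replicate block 2945 genes were higher and 1530 lower, with 22 higher and 25 lower pathway genes. Per-length levels by longest transcript were larger for 7 of the 8 genes. Of the changes of single pathway, neighbouring and similar genes, 849 values kept their side of the threshold, 106 lost and 8 gained a call, and 0 turned in sign while called. MLXIPL rests on 10 to 27 counts per library, and counts alone do not show protein level, TXNIP activity or MondoA binding.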

Other observations

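The nearest tested protein-coding genes of TXNIP and ARRDC4 did not show changes of like size. POLR3GL, a subunit gene of RNA polymerase III that ends 13586 bases from TXNIP, rose from 32.5 and 32.3 CPM to 55.2 and 54.1 CPM (log2 fold change 0.76, edgeR adjusted p = 0.000272). HJV, 20888 bases away on the other side, had 161 and 140 counts with DMSO and 100 and 108 with dBET1 and did not pass (log2 fold change -0.53, adjusted p = 0.0721). ARRDC4 lies 1620439 bases from NR2F2, which fell by 0.42 (adjusted p = 0.00261, lost in 2 of 11 alternatives), and 674705 bases from IGF1R, which did not pass (0.24). The difference between these genes and TXNIP or ARRDC4 was not tested.

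MLX starts 794 bases after the end of COASY, the coenzyme A synthase gene on the same strand, which fell from 159 and 179 CPM to 99.7 and 102 CPM (log2 fold change -0.75, adjusted p = 0.000232), beside -0.86 for MLX. RETREG3, an ER-phagy receptor gene 6273 bases beyond MLX, rose by 1.11 (adjusted p = 0.000121). B3GNT4, a glycosyltransferase gene 56336 bases beyond MLXIP, rose from 49 and 52 counts to 386 and 560 (log2 fold change 3.22, adjusted p = 4.37e-05), whereas BCL7A on the other side fell by 0.98 (adjusted p = 0.000452). Beside ARRDC1, ZMYND19 fell by 1.14 (adjusted p = 0.00025) and EHMT1 by 0.33 (adjusted p = 0.0106, lost in 3 of 11 alternatives). Beside ARRDC3, ADGRV1, 204193 bases away, fell by 0.71 (adjusted p = 0.0014), and NR2F1 did not pass (-0.47). Beside ARRDC2, KCNN1 (-1.39, adjusted p = 0.0518) and MAST3 (0.22) did not pass. Beside MLXIPL, DNAJC30 rose by 1.02 (adjusted p = 0.00154) and TBL2 was lower by a log2 fold change of -0.23 (adjusted p = 0.0389, lost in 7 of 11 alternatives).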
